A study of Arabidopsis thaliana with 20 samples.

Results

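The transcriptomes of a pair of quintuple mutants of Arabidopsis thaliana (thale cress) were compared in inflorescences. Both lines were mutated in dvl8, dvl11, rtfl11 and dvl19, which make up 4 of the 5 mutated genes of each. The fifth was dvl1 in the dvl1 quintuple and rtfl9 in the other line, the rtfl9 quintuple. The comparison rested on 6 of the 15 libraries of the deposited table, 3 per mutant: replicates 2, 3 and 4 of the dvl1 quintuple and replicates 1, 2 and 4 of the rtfl9 quintuple. The other 9 libraries came from Columbia wild type, from dvl1-1D, in which DVL1 stood at 525 to 612 RPKM (reads per kilobase of gene, scaled to library size), and from 35S:DVL8, a single line by its name, in which the 35S promoter drives DVL8; they entered the fit for its estimate of the spread. The labels list 20 samples, of which the submitters set aside 1 per group as outliers. They describe the replicates as independent and biological, name whole inflorescences up to the flower at anthesis in one place and flowers past anthesis in another, and give neither the kind of mutation nor the number of lines behind each quintuple.

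DEVIL (DVL) and ROTUNDIFOLIA-LIKE (RTFL) peptides are short proteins of plants that share a conserved stretch near the C-terminus. The family is known mainly from gain of function: raised levels shorten leaves, pedicels and siliques and change fruit shape, whereas single loss-of-function mutants have shown little change in form. Setting one quintuple against the other asks whether losing DVL1 or RTFL9, in plants mutated in the same other genes, leaves a different set of transcripts.

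The coding sequences show how alike the genes that were exchanged are. Each stretch below is the best ungapped match of 90 bases, in steps of whole codons, read 5′ to 3′ from the TAIR10.1 reference genome of RefSeq, with capitals for bases identical in both genes of the pair. DVL1 (156 coding bases; stretch at chr5:5232740-5232829, minus strand) and RTFL9 (330 coding bases; chr1:20052566-20052655, plus strand) were identical at 45 of the 90 bases.
DVL1: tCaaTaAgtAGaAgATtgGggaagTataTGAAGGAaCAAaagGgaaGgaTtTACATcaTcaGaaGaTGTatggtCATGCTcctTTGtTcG
RTFL9: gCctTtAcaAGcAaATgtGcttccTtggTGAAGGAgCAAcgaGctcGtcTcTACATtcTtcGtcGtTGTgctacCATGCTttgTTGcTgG
RTFL9 (chr1:20052569-20052658, plus strand) and DVL19 (147 coding bases; chr3:4794199-4794288, minus strand), a gene mutated in both quintuples, were identical at 84 of 90 bases (93.3%).
RTFL9: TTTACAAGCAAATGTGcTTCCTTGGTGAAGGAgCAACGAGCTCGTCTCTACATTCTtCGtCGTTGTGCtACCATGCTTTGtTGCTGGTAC
DVL19: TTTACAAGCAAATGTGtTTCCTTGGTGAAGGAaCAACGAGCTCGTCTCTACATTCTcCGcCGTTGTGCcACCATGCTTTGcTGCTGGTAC
Among the 15 pairs of the 6 mutated genes this was the highest identity. Within these 6, the gene closest to DVL1 was DVL8, also mutated in both quintuples, with 58 identical bases (64.4%).

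Depth was similar in both mutants. Reads assigned to genes, recovered from the steps of the deposited RPKM values, were 25327874, 27422677 and 36589874 in the dvl1 quintuple and 31603503, 27629334 and 22471890 in the rtfl9 quintuple. The SD over genes of the log2(RPKM + 1) difference between a pair of libraries was 0.164 to 0.196 within the dvl1 quintuple, 0.194 to 0.262 within the rtfl9 quintuple, and 0.173 to 0.265 for the 9 pairs across them. Libraries of different mutants were thus about as alike as replicates. Replicate 4 of the rtfl9 quintuple had 54 tested genes more than 2-fold from both other replicates, and replicate 1 had 35, against 6 to 16 in the other 4 quintuple libraries. All 16 floral organ identity genes that could be matched, the markers of the labelled tissue, had reads (SEP1 and SEP2 were not matched), and their summed level was 492.7 to 568.6 RPKM in the dvl1 quintuple and 517.8 to 566.8 RPKM in the rtfl9 quintuple.

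The mutated genes were examined first, and most of them had too few reads to show a loss. DVL1 had 0 reads in the dvl1 quintuple, which allows up to 0.0336 RPM (reads scaled by the library total, RPKM without the gene length) over its 3 libraries (3 reads, counting error only), 1 in the rtfl9 quintuple and 0 in wild type. RTFL9 and DVL19 were listed at 0 in every library, and both overlap annotated neighbours, as does DVL9, the third family member listed at 0. Unstranded counting can leave reads of overlapping genes unassigned, so a listed 0 does not show that these genes were silent. DVL8 had 2 reads in the dvl1 quintuple, 1 in the rtfl9 quintuple and a mean of 0.0509 ± 0.0116 RPKM (SD, n = 3) in wild type. RTFL11 had 27 reads in each quintuple, at 0.439, 0.162 and 0.395 RPKM in the dvl1 quintuple and 0.246, 0.523 and 0.346 RPKM in the rtfl9 quintuple, with overlapping groups.

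DVL11, the mutated gene with most reads, stood at 1.88, 2.24 and 1.84 RPKM in the dvl1 quintuple (259 reads) and at 0.992, 1.16 and 1.46 RPKM in the rtfl9 quintuple (141 reads). All 3 libraries of the dvl1 quintuple lay above all 3 of the rtfl9 quintuple. Wild type had 2.48, 1.74 and 2.37 RPKM, so the dvl1 quintuple lay within its range and the rtfl9 quintuple below it. The log2 difference, dvl1 quintuple minus rtfl9 quintuple, was 0.44 ± 0.13 (SE; 95% interval 0.17 to 0.71), which did not pass limma's test over all genes (unadjusted p = 0.00355, adjusted p = 0.993). Here and throughout, differences are on the log2(RPKM + 1) scale, which understates changes at low RPKM, and every adjusted p is limma's after Benjamini-Hochberg adjustment.

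Of the whole family no gene passed the test. In all, 10 of the 23 family genes reached the filter of 1 RPKM in at least 3 of the 6 libraries, and 0 were called by limma, with 1, DVL11, at an unadjusted p under 0.05. DVL6 was the most abundant per length, at 25.7, 26.7 and 24.2 RPKM against 25.8, 26.5 and 26.2 RPKM (difference -0.03, interval -0.14 to 0.07). DVL3 stood at 8.95 ± 0.412 and 8.13 ± 1.83 RPKM (0.14, interval -0.18 to 0.47), and DVL4 at 6.53 ± 0.849 and 6.05 ± 0.556 RPKM (0.09, interval -0.13 to 0.31). ROT4, also named DVL16, was at 3.39 ± 0.612 and 3.06 ± 0.49 RPKM (0.11 ± 0.22). The median over the 10 tested members was 0.02, beside -0.004 over all genes.

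Few genes differed between the mutants across the transcriptome. Of 19583 genes tested, 3 (0.0153%) passed an adjusted p of 0.05, with 0 higher and 3 lower in the dvl1 quintuple. At an unadjusted p under 0.05 there were 855 genes (4.37%), 368 higher and 487 lower. The 3 libraries of one mutant did not overlap the 3 of the other in 816 genes higher (4.17%) and 1143 genes lower (5.84%) in the dvl1 quintuple. With 3 libraries against 3 the smallest exact permutation p is 0.1, so separate groups, here and below, are by themselves no evidence of a difference. The median absolute log2 difference was 0.05 and its 90th percentile 0.16, and 8 genes differed by at least 1, of which 2 were called.

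The precision was enough to bound most genes. The 95% interval reached a median of 0.16 to either side of the estimate and lay wholly inside a 2-fold change for 99.2% of genes and inside a 1.5-fold change for 94.1%. These bounds hold on the log2(RPKM + 1) scale, and 166 genes had intervals that reached past 2-fold. Fitted to the 6 quintuple libraries alone, 0 genes were called by limma, with AT3G30122 at an adjusted p of 0.0572 and 831 genes at an unadjusted p under 0.05, whereas a fit of these and the wild-type libraries, added after seeing the data, kept all 3 calls and made 4.

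**Figure D1:**
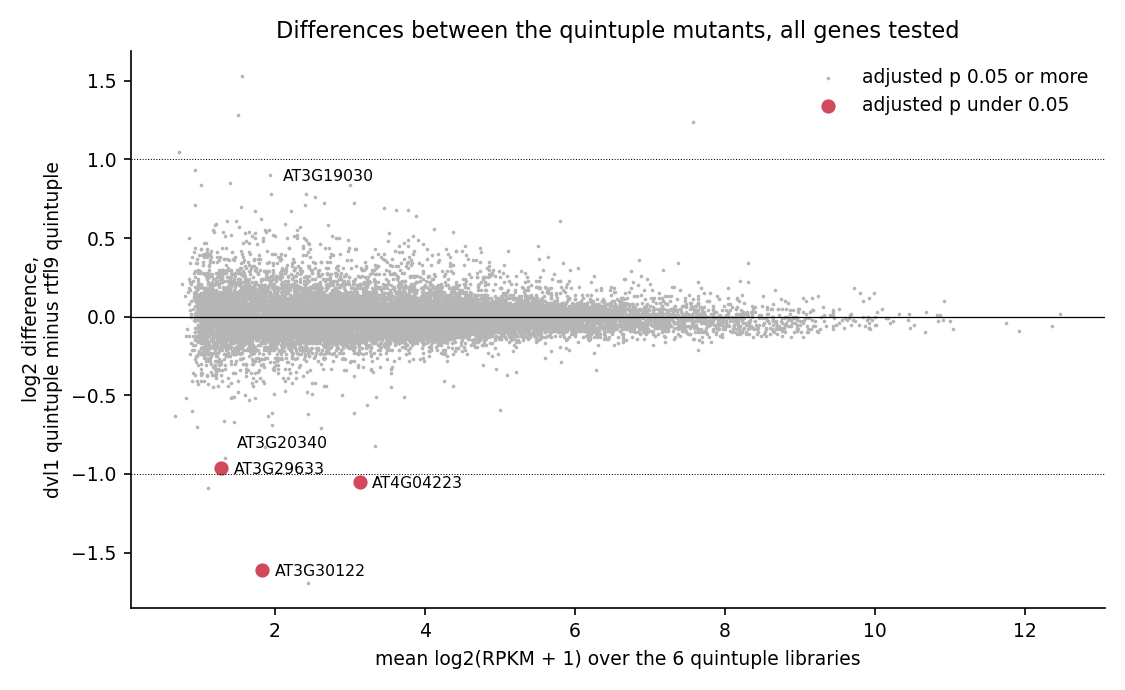
Log2 difference, dvl1 quintuple minus rtfl9 quintuple, against the mean log2(RPKM + 1) over the 6 quintuple libraries, with 1 point per gene for the 19583 genes tested. The 3 genes with an adjusted p under 0.05 are large and red, dotted lines mark a log2 difference of 1 in either direction, and the 5 genes with the smallest p are named.

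AT3G30122 had the smallest p and was the one among the 3 called genes whose call held on leaving out each of the 6 libraries in turn. It is annotated as a transcribed pseudogene without a product (chromosome 3, 11758478 to 11761130, minus strand, TAIR10.1). It stood at 0.911, 0.864 and 1.37 RPKM in the dvl1 quintuple and at 4.66, 4.98 and 6.02 RPKM in the rtfl9 quintuple, with 151 and 656 reads over the groups. The highest dvl1 quintuple library was well below the lowest rtfl9 quintuple library. The means were 4.99-fold apart, and the log2 difference was -1.61 ± 0.13 (interval -1.90 to -1.32, adjusted p = 0.000218).

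In the other groups AT3G30122 stood at 2.08, 1.86 and 1.77 RPKM in wild type, 0.499, 1.09 and 0.719 RPKM in dvl1-1D and 1.49, 1.09 and 1.28 RPKM in 35S:DVL8. The rtfl9 quintuple was thus above every other group. Its difference from wild type was 1.09 ± 0.13 (adjusted p = 0.00341), and that of the dvl1 quintuple was -0.51 ± 0.13 (adjusted p = 0.421). Both use the same wild-type libraries, and the quintuple libraries are those by which the gene was picked. No annotated gene overlaps it. Of its 50-base words, 9.8% occur elsewhere in the genome, mainly within the protein-coding genes AT1G56350 and AT2G24060, whose own differences were -0.04 ± 0.06 and 0.04 ± 0.05.

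AT3G29633 lies 306 kb from AT3G30122 (chromosome 3, 11452509 to 11453528, minus strand) and encodes an uncharacterized protein. Its levels were 0.559, 0.664 and 1.02 RPKM in the dvl1 quintuple and 2.3, 2.56 and 2.29 RPKM in the rtfl9 quintuple. The groups did not overlap, and the means were 3.19-fold apart (69 and 193 reads; log2 difference -0.96 ± 0.11, interval -1.21 to -0.72, adjusted p = 0.00641). Wild type stood at 0.667, 0.674 and 0.667 RPKM, close to the dvl1 quintuple, while 35S:DVL8 lay between at 1.6, 1.57 and 1.08 RPKM. None of its 50-base words occurs elsewhere. The adjusted p rose to 0.0659 without replicate 3 of the dvl1 quintuple and to 0.0581 without replicate 2 of the rtfl9 quintuple.

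The tested neighbours of these genes did not pass the test. Within 50 kb of AT3G30122 the annotation holds 20 other genes of the table, 16 of them under 1 RPKM in all 6 libraries, and within 50 kb of AT3G29633 it holds 32, of which 31 were under 1 RPKM. Over the whole annotation 45.1% of genes were that low. The 3 tested neighbours of AT3G30122 included COBL2, a COBRA-like gene, at 5.73 ± 0.208 and 6.18 ± 1.34 RPKM (-0.08 ± 0.10), and AT3G30120, another transcribed pseudogene, at 1.18 ± 0.131 and 1.39 ± 0.549 RPKM (-0.11 ± 0.15). The single tested neighbour of AT3G29633, AT3G29644, stood at 3.96 ± 0.131 and 4.17 ± 0.0605 RPKM (-0.06 ± 0.07).

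AT4G04223, a non-coding RNA gene (chromosome 4, 2036511 to 2037816, plus strand), stood at 6.11, 4.85 and 4.38 RPKM in the dvl1 quintuple and at 10.9, 10.7 and 13.1 RPKM in the rtfl9 quintuple (246 and 514 reads). The groups were separate, with means 2.27-fold apart (log2 difference -1.05 ± 0.13, interval -1.32 to -0.78, adjusted p = 0.00641). Wild type had 4.48, 3.26 and 4.2 RPKM, and dvl1-1D had 32.5, 24.9 and 30.2 RPKM, the highest of all groups. The adjusted p rose to 0.0659 without replicate 3 of the dvl1 quintuple and to 0.0523 without replicate 4 of the rtfl9 quintuple. Of 4 tested neighbours within 50 kb, PUX4, which encodes a UBX domain protein, had the smallest p, at 31.6 ± 0.587 and 33.7 ± 1 RPKM (-0.09 ± 0.05).

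The call on AT4G04223 is uncertain because the gene is in part a copy of another. Of its 1257 words of 50 bases, 835 (66.4%) occur elsewhere, all of them in AT3G56210, an ARM repeat protein gene on chromosome 3 (20852380 to 20855610, minus strand), and 10 of the places they match lie in AT5G38005, a non-coding RNA gene on chromosome 5. These 3 genes held ranks 3, 9 and 13 by p. AT3G56210 differed in the opposite direction, at 17.8, 16.9 and 16.9 RPKM in the dvl1 quintuple and 15, 14.3 and 13.2 RPKM in the rtfl9 quintuple (0.26 ± 0.05, adjusted p = 0.331), and AT5G38005 in the same direction as AT4G04223, at 3.62, 4.22 and 3.61 RPKM and 5.34, 8.5 and 7.02 RPKM (-0.71 ± 0.15, adjusted p = 0.656). Neither passed the test.

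Recovered reads of the 3 related genes were therefore summed in each library, a step chosen after these values were seen. AT4G04223 had 2.81 ± 0.492 RPM in the dvl1 quintuple against 6.36 ± 0.734 in the rtfl9 quintuple (SD, n = 3, here and for the other genes). AT3G56210 had 30.3 ± 0.883 and 25 ± 1.57 RPM, and AT5G38005 had 2.08 ± 0.188 and 3.79 ± 0.861. The sums were 36.6, 34.8 and 34.1 RPM in the dvl1 quintuple against 35.3, 35.8 and 34.4 in the rtfl9 quintuple, with means of 35.2 ± 1.31 and 35.1 ± 0.718. The groups overlapped in the sum, although they were separate for each gene alone. Because the opposite directions were known when the sum was formed, it is a description with no test. Its near equality rests on including AT5G38005: AT4G04223 and AT3G56210 alone summed to 34.7, 32.5 and 32.1 RPM against 32.4, 31.1 and 30.5 RPM, which also overlapped, with means of 33.1 ± 1.37 and 31.4 ± 0.957. Whether reads were assigned differently among the copies in the mutants was not tested. The sum of all 3 was lower in wild type, at 28.7 ± 1.36 RPM, and higher in dvl1-1D, at 53.3 ± 2.81. In wild type AT4G04223 had 2.19 ± 0.352 RPM, AT3G56210 24.8 ± 1.28 and AT5G38005 1.71 ± 0.229. Set against wild type, the rtfl9 quintuple was thus higher for AT4G04223 and close to it for AT3G56210. In dvl1-1D AT4G04223 had 16 ± 2.13 RPM and AT3G56210 30.9 ± 0.533, both above wild type.

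**Figure D2:**
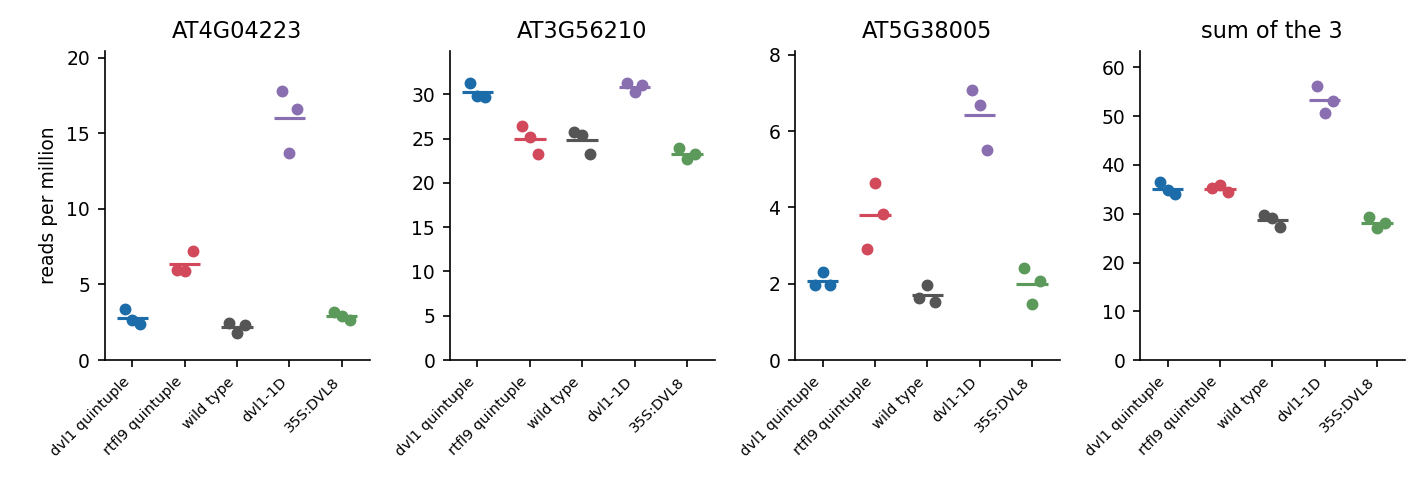
RPM of AT4G04223, AT3G56210 and AT5G38005 and their sum, with 1 point per library and a line at the mean of each group of 3. Each gene separates the quintuples, with AT4G04223 and AT5G38005 lower and AT3G56210 higher in the dvl1 quintuple, while the sums lie at 34.1 to 36.6 in the dvl1 quintuple against 34.4 to 35.8 in the rtfl9 quintuple.

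The bases around the starts of the called genes, 250 before and 50 after, are shown because all 3 differed in the same direction. AT3G30122 covers chr3:11761081-11761380 and AT3G29633 chr3:11453479-11453778, both on the minus strand, and AT4G04223 covers chr4:2036261-2036560 on the plus strand (TAIR10.1, 5′ to 3′).
AT3G30122: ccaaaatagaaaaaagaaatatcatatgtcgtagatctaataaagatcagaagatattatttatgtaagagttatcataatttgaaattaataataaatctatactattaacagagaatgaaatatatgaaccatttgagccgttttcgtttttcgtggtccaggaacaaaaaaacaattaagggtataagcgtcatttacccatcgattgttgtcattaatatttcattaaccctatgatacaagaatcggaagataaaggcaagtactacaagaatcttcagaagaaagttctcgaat
AT3G29633: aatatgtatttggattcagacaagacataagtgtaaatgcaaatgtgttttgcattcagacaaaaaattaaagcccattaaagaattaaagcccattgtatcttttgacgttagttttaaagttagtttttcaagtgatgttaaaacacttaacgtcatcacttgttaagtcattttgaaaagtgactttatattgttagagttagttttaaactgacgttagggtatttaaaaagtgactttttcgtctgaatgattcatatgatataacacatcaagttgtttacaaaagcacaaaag
AT4G04223: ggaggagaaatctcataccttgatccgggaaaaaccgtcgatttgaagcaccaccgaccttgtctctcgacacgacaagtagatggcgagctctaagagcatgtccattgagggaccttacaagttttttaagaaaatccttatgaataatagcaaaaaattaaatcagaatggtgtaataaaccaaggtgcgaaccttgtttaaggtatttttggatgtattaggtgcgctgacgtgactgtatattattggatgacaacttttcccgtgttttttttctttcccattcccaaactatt
A and T made up 71.3%, 71.7% and 60.7% of these bases, beside 67.9% over the same window of 19514 tested genes. The evening element AAAATATCT, the G-box CACGTG, the W-box TTGACC and the class II TCP site GTGGNCCC were searched on both strands, and none of the 4 was in any of the 3 windows. They were in 3.02%, 8.81%, 14.1% and 0.933% of the windows of all tested genes, so the absence says nothing of the factors that bind them.

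With fewer than 10 genes called, the 10 smallest p-values were followed, and 7 of these genes did not pass the test. AT3G19030, annotated as a TFIID subunit 1b-like protein gene, was at 4.53, 4.33 and 3.85 RPKM in the dvl1 quintuple and at 1.72, 1.82 and 1.88 RPKM in the rtfl9 quintuple (0.90 ± 0.14, adjusted p = 0.0788). Wild type lay between, at 2.83, 3.53 and 2.71 RPKM. AT3G20340, of unknown role, was at 0.674, 1.1 and 0.753 RPKM and 2.28, 3.04 and 2.04 RPKM (-0.90 ± 0.14, adjusted p = 0.0788). Both groups were separate for these genes, and dvl1-1D, at 2.84, 3.97 and 2.74 RPKM, resembled the rtfl9 quintuple for the latter.

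AT5G24240, a phosphatidylinositol 4-kinase gamma-like gene, had 7.1 ± 1.32 RPKM in the dvl1 quintuple and 4.37 ± 0.404 RPKM in the rtfl9 quintuple (0.58 ± 0.10, adjusted p = 0.203). GSTF9, a glutathione S-transferase that conjugates electrophiles for detoxification, was the most abundant of the 10, at 348, 335 and 390 RPKM and 290, 284 and 270 RPKM (0.34 ± 0.06, adjusted p = 0.217). LBD26, a member of the plant-specific LOB domain family of transcription factors, had 1.76 ± 0.487 and 3.9 ± 0.703 RPKM (-0.83 ± 0.16, adjusted p = 0.331). The remaining gene, the RNase H family gene AT5G51080, had 3.88 ± 0.337 and 5.55 ± 0.393 RPKM (-0.42 ± 0.09, adjusted p = 0.474). The groups did not overlap in any of the 10, but the same was true of 1959 genes in all.

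**Figure D3:**
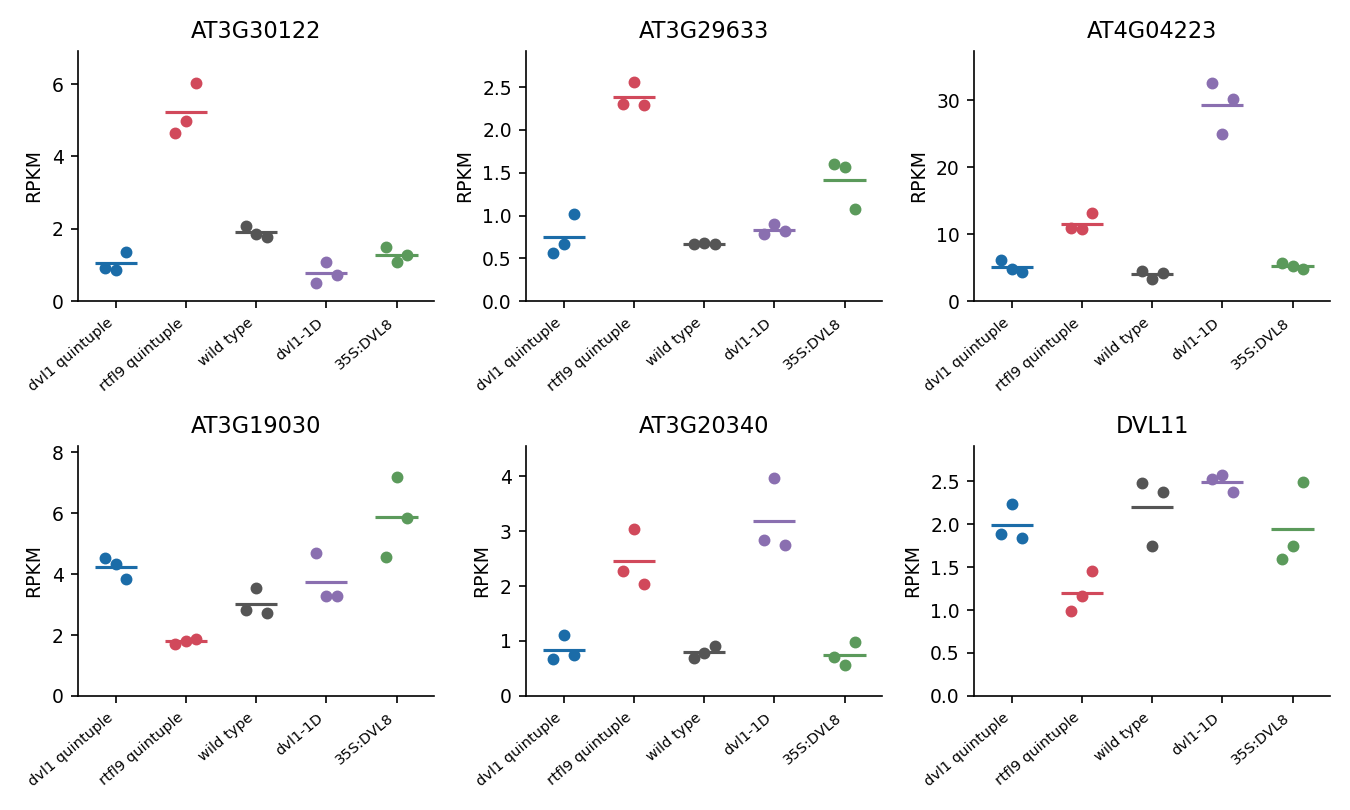
RPKM of the 3 called genes, of AT3G19030 and AT3G20340 and of DVL11 in each of the 15 libraries, with 1 point per library and a line at the mean of each group of 3. The rtfl9 quintuple stands above the dvl1 quintuple for the called genes and AT3G20340 and below it for AT3G19030 and DVL11.

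For genes with a mean under 0.1 RPKM in one quintuple and of at least 1 RPKM in the other, 2 were found, and neither passed the filter for testing. The pseudogene AT3G42090 had 1.73, 1.28 and 0.24 RPKM in the dvl1 quintuple, from 10 reads, and 0 reads in all 3 rtfl9 quintuple libraries. These 0 reads allow up to 0.0367 RPM over the 3 libraries. That limit is not divided by the gene length, so it is on another scale than the RPKM values and was not converted. The 0 reads do not by themselves show a level under 0.1 RPKM. Wild type had 1.93, 2.77 and 2.37 RPKM. AT1G17990, an FMN-linked oxidoreductase gene, had 0.0605, 0.0461 and 4.76 RPKM in the rtfl9 quintuple and at most 0.122 RPKM in the dvl1 quintuple. Its high mean came from replicate 4 alone, and single libraries of dvl1-1D (3.45 RPKM) and 35S:DVL8 (2.9 RPKM) were raised too. All of its 50-base words occur elsewhere, mostly in AT1G18020, so its level is uncertain.

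The mutants differ by design at DVL1 on chromosome 5 and RTFL9 on chromosome 1, and no called gene lay near either locus. Within 100 kb of DVL1, 47 genes were tested, 0 were called by limma and 4 had an unadjusted p under 0.05, with a median of -0.02 and differences from -0.23 to 0.29. The closest 9, within 20 kb, ranged from -0.10 to 0.08, and GRF5 (AT5G16050, general regulatory factor 5, a 14-3-3 protein gene), with the smallest p among them, differed by -0.07 (unadjusted p = 0.0647). Within 100 kb of RTFL9, 32 genes were tested, 0 were called and 2 had an unadjusted p under 0.05, with differences from -0.19 to 0.23. The shares at an unadjusted p under 0.05, beside 4.37% of all genes, were 8.51% within 100 kb, 5.75% within 500 kb, 4.33% within 1 Mb and 3.49% within 2 Mb of DVL1. For RTFL9 they were 6.25%, 7.77%, 6.55% and 5.1% at the same distances. Within 100 and 500 kb of both loci the shares were above that of all genes, on few genes, with 4 of 47 and 2 of 32 within 100 kb; within 20 kb 0 of 9 around DVL1 and 1 of 9 around RTFL9 had such a p. Around the shared loci the shares within 100 kb were 7.14% for DVL8, 4.44% for DVL11, 2.7% for RTFL11 and 8.11% for DVL19, again on few genes. A raised share within 100 kb was thus not particular to the loci that differ. Within 500 kb the shares were 4.95% for DVL8, 5.31% for DVL11, 4% for RTFL11 and 4.04% for DVL19. DVL1 and RTFL9 were both above these. Within 1 Mb they were 5.23%, 4.77%, 4.32% and 4.23% in the same order, below RTFL9 and with DVL1 inside their range. Within 2 Mb the shares were 4.57% for DVL8, 4.68% for DVL11, 4.54% for RTFL11 and 4.91% for DVL19, between DVL1 and RTFL9. Around these shared loci 0 genes were called at any of these distances. Whether the loci differ in these shares was not tested.

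**Figure D4:**
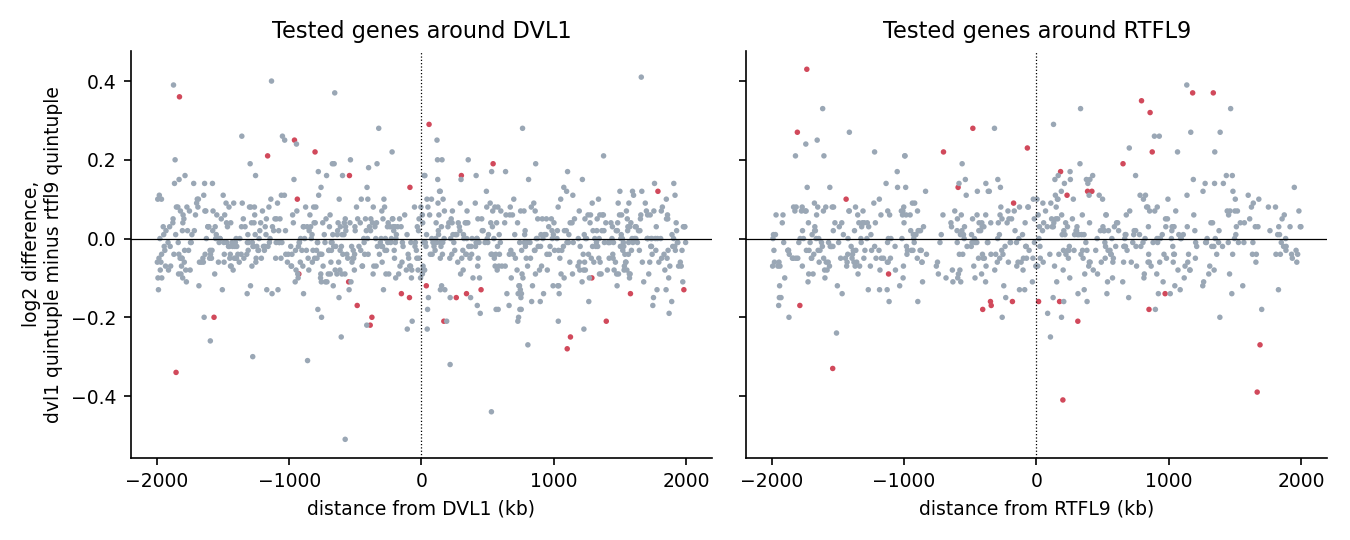
Log2 difference, dvl1 quintuple minus rtfl9 quintuple, of every tested gene within 2000 kb of DVL1 (left) and RTFL9 (right), against the distance from that gene to higher coordinates. Red points have an unadjusted p under 0.05; differences stay between -0.51 and 0.41 around DVL1 and between -0.41 and 0.43 around RTFL9.

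Chromosome 3 held 3953 of the 19583 tested genes, 6 of the 10 smallest p-values and 10 of the 20 smallest. This breakdown was made after the ranking was seen and is a description. Both DVL19 and DVL8 lie on chromosome 3 and are mutated in both quintuples. The 10 genes were spread along the chromosome, from AT3G19030 at 6.56 Mb and 1.77 Mb from DVL19 to GLP10, a germin-like gene, at 22.97 Mb and 2.38 Mb from DVL8. Of them AT3G56210 lay closest to a mutated locus, 0.26 Mb from DVL8. Among the 100 smallest p-values chromosome 3 held 27, as did chromosome 1, which held 5113 of the tested genes.

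Gene groups of flower development, hormones, growth and stress were then examined in 33 lists. Of 581 different list genes tested, 0 were called by limma in the main comparison or under any of the alternatives, and 13 (2.24%) had an unadjusted p under 0.05, beside 4.37% of all genes. The 95% interval lay inside 1.5-fold for 538 of them (92.6%). Median differences of the lists ran from -0.09 to 0.17, and 32 of 33 were between -0.1 and 0.1. Of the list genes 20 were listed at 0 in all 6 libraries, among them MYC2, TCP9 and SPL3, and 16 of these 20 overlap an annotated gene, beside 25.8% of all list genes. The list members named next were chosen after values were seen, for their role, their small p, their large difference or a library that stood apart.

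The 15 tested floral organ identity genes, which set sepal, petal, stamen and carpel fate, had a median of 0.01 and ranged from -0.17 to 0.08, and all 15 intervals were inside 1.5-fold. AG, which specifies stamens and carpels, stood at 24.9 ± 1.14 and 24.7 ± 1.5 RPKM (0.01, interval -0.11 to 0.14), and AP1, which specifies sepals and petals, at 59.5 ± 5.24 and 59 ± 5.15 RPKM (0.01, interval -0.15 to 0.17). The 24 carpel, style, fruit and nectary genes had a median of 0.01 and all intervals inside 1.5-fold. Among 15 meristem and boundary genes, STM, which maintains the shoot meristem, was at 47.3 ± 1.06 and 47 ± 2.13 RPKM (0.01, interval -0.09 to 0.11). KNAT2, a related homeobox gene, was at 3.7 ± 0.253 and 4.55 ± 0.0218 RPKM with separate groups (-0.24 ± 0.09, unadjusted p = 0.0209).

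The 25 mitotic genes had a median of -0.02, the 23 DNA replication genes -0.03, the 21 genes of cell shape and the cytoskeleton -0.02 and the 20 histone genes -0.06, with every interval of these 4 lists inside 1.5-fold. Of the 20 histone genes 18 had negative differences, none past -0.15, beside 10272 of the 19583 genes tested. Relative to the mean of the 6 libraries on the log2 scale, they averaged -0.01, -0.07 and -0.02 in the dvl1 quintuple. In the rtfl9 quintuple they averaged 0.07, -0.02 and 0.05, so the groups overlapped. The 25 expansin and wall-loosening genes had a median of -0.06, ranged from -0.32 to 0.38 and had 22 intervals inside 1.5-fold, and EXPB1, a beta-expansin, had 7.06 ± 0.661 and 9.15 ± 1.72 RPKM with overlapping groups (-0.32 ± 0.12, unadjusted p = 0.0216).

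TCP transcription factors, which control organ growth, had a median of -0.05 over 16 genes. TCP1, a regulator in the brassinosteroid pathway, stood at 4.71, 3.96 and 4.29 RPKM in the dvl1 quintuple and 3.72, 3.18 and 2.06 RPKM in the rtfl9 quintuple. The groups did not overlap, although only by a small gap, and the gene did not pass (0.44 ± 0.13, unadjusted p = 0.00492, adjusted p = 0.993). The 17 brassinosteroid genes had a median of -0.00, 17 intervals inside 1.5-fold and the smallest p in BR6OX1, an oxidase of brassinolide synthesis (-0.21, interval -0.43 to 0.01). The medians were -0.03 for 23 early auxin genes, 0.01 for 17 gibberellin genes, 0.05 for 15 cytokinin genes and 0.06 for 24 jasmonate and stamen genes, with 0 members at an unadjusted p under 0.05 in these 4 lists.

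No clock gene passed the test. In replicate 4 of the rtfl9 quintuple the 9 dawn genes averaged 0.24 above the mean of the 6 libraries on the log2 scale, while the other 5 libraries lay between -0.09 and 0.03. LHY, a dawn MYB gene, had 18.5 RPKM in that library and 8.11 and 8.24 RPKM in the other rtfl9 quintuple replicates, beside 10.6, 9.62 and 8.82 RPKM in the dvl1 quintuple (-0.15, interval -0.59 to 0.30). The medians were -0.03 for the dawn genes, -0.00 for 14 day and evening genes and 0.01 for 10 output and photoperiod genes. Of the last, BBX18, a B-box gene, had 20.7, 19.8 and 18.8 RPKM in the dvl1 quintuple and 17.9, 18.4 and 17.1 RPKM in the rtfl9 quintuple, with separate groups (0.14 ± 0.06, unadjusted p = 0.0342). Among 14 flowering-time genes, with a median of -0.04, MAF5, a relative of the flowering repressor FLC, had 2.17 ± 0.491 and 3.89 ± 1.11 RPKM (-0.61 ± 0.22, unadjusted p = 0.0146).

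The 16 rapid touch and wound genes had the highest median of all lists, 0.17, with 0 called and 0 at an unadjusted p under 0.05. Only 9 of the 16 had intervals inside 1.5-fold, beside 92.6% of all list genes. Positive differences were found in 14 of the 16, beside 9311 of the 19583 genes tested. The members averaged 0.41 above the mean of the 6 libraries in replicate 3 of the dvl1 quintuple, but 0.10 and -0.24 in the other dvl1 quintuple replicates and -0.12 to -0.07 in the rtfl9 quintuple. TCH2, a calmodulin-like touch gene, had 21 ± 4.15 and 18.4 ± 2.25 RPKM in overlapping groups (0.17 ± 0.10). Among 19 sugar starvation and darkness genes (median 0.07), ORE1, a senescence regulator, had the smallest p, at 8.38 ± 1.8 and 6.02 ± 1.87 RPKM in overlapping groups (0.44 ± 0.18, unadjusted p = 0.0288). In the same list SAG12, a senescence protease gene, had 270, 407 and 228 RPKM in the dvl1 quintuple and 245, 294 and 25.5 RPKM in the rtfl9 quintuple. Its difference was 1.24 (interval -0.11 to 2.60), with replicate 4 of the rtfl9 quintuple low and its other replicates inside the range of the dvl1 quintuple. Salicylate and defence genes had the lowest median, -0.09 over 17, and only 10 of the 17 had intervals inside 1.5-fold. WRKY54, a regulator in salicylate responses, stood at 9.04 ± 0.265 and 12.7 ± 0.947 RPKM in separate groups (-0.45 ± 0.14, unadjusted p = 0.00546).

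The other lists of function had medians near 0: 0.02 for heat shock, -0.01 for flavonoids, -0.01 for trichome and epidermis, -0.05 for meiosis, -0.00 for copper and iron, and 0.04 for WRKY genes. Intervals lay inside 1.5-fold for 11 of 15 flavonoid and 12 of 16 WRKY genes. Relative to the mean of the 6 libraries, the flavonoid genes averaged -0.13, -0.00 and 0.12 in the dvl1 quintuple. In the rtfl9 quintuple they averaged -0.29, 0.23 and 0.06, so replicates on either side of 0 lie behind this median. CER3, a wax synthesis gene of the epidermis, had 204 ± 2.86 and 192 ± 5.27 RPKM (0.09 ± 0.04, unadjusted p = 0.0302).

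Markers of tissues within or outside the flower gave similar totals. In bulk tissue fewer cells of a type and less RNA per cell cannot be told apart. The 32 mature pollen markers summed to 736.4 to 848.2 RPKM in the dvl1 quintuple and 663.1 to 760.2 RPKM in the rtfl9 quintuple, with overlap. Of these markers, 21 of 27 tested had positive differences (median 0.09, 0 called), beside 9311 of the 19583 genes tested. The 29 tapetum and exine markers summed to 2059 to 2095 RPKM and 1968 to 2319 RPKM, with the highest value in replicate 4 of the rtfl9 quintuple (median -0.01). The 34 ovule and seed markers summed to 101.1 to 115.1 RPKM and 102.4 to 119.5 RPKM, and ANT, needed for ovule and organ growth, was at 25.2 ± 1.09 and 28.2 ± 1.99 RPKM (-0.16 ± 0.06, unadjusted p = 0.0236). The 35 photosynthesis markers summed to 45326 to 49549 RPKM and 43335 to 51015 RPKM. The 21 root markers summed to 54.2 to 58.9 RPKM and 55.6 to 60.2 RPKM, with EXPA7, EXPA18 and CASP1 listed at 0.

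**Figure D5:**
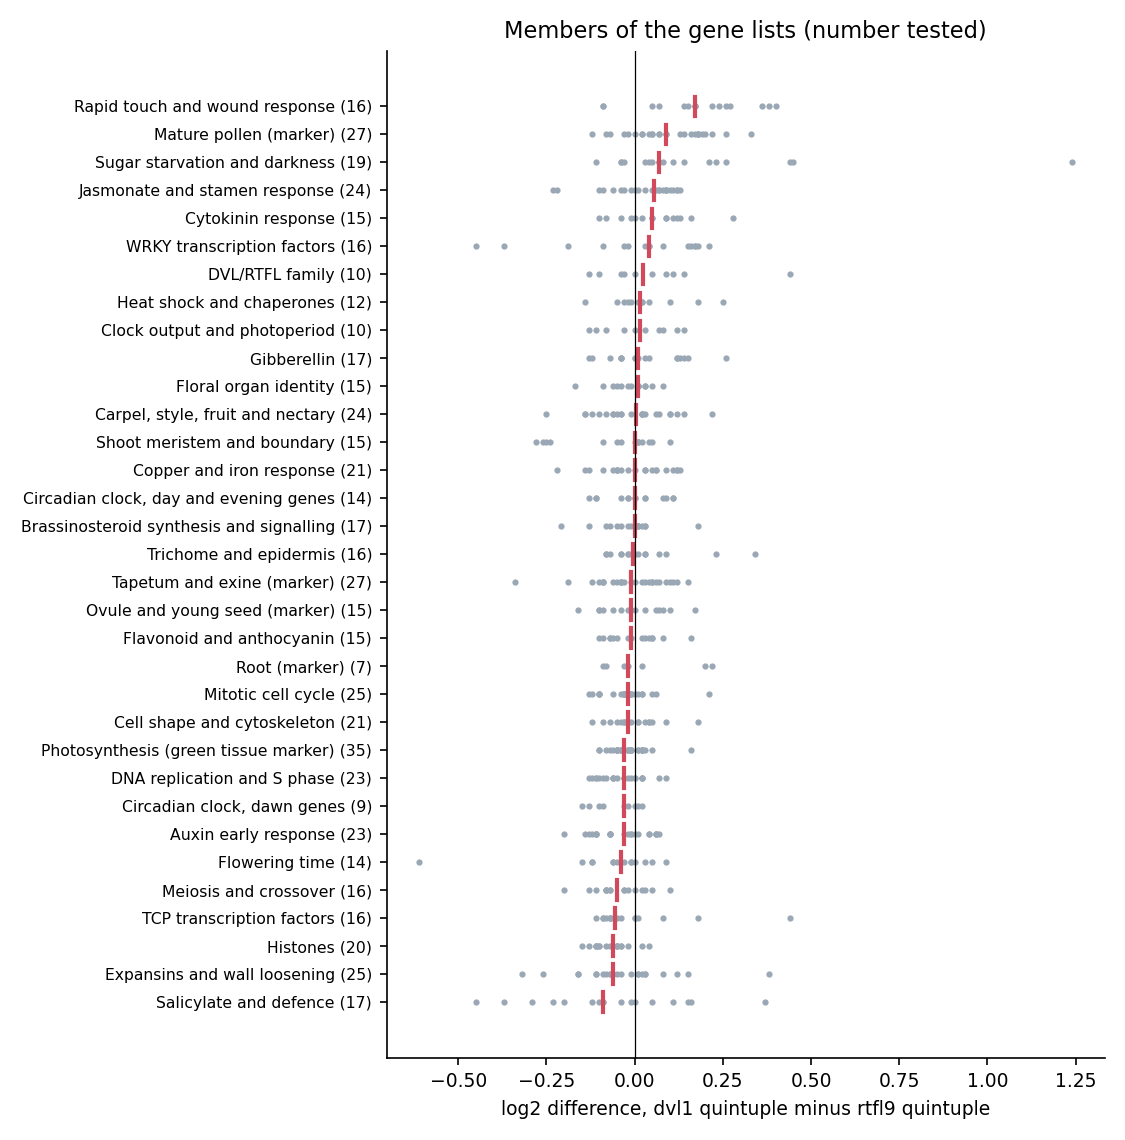
Log2 difference, dvl1 quintuple minus rtfl9 quintuple, of each tested member of the 33 gene lists (grey points), with the list median as a red bar and the number of members tested in parentheses. Medians run from -0.09 to 0.17, and the point at 1.24 is SAG12.

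Set against wild type in the same fit, the dvl1 quintuple had 5 called genes (0.0255%) and the rtfl9 quintuple 247 (1.26%). These counts share the wild-type libraries, and a gene called in one and not in the other is not thereby shown to differ between the mutants. The direct test is the one given above, with 3 genes. Each of the 3 was higher in the rtfl9 quintuple than in wild type (1.09, 1.02 and 1.34 for AT3G30122, AT3G29633 and AT4G04223, all called), whereas the dvl1 quintuple differed from wild type by -0.51, 0.06 and 0.29, of which 0 were called. For AT3G20340 and LBD26, which the direct test did not call, the rtfl9 quintuple was higher than wild type as well (0.94 ± 0.14, adjusted p = 0.0182, and 0.87 ± 0.16, adjusted p = 0.0288). All of these genes were picked by the direct comparison, which used the same quintuple libraries. Their differences from wild type are therefore a description and no separate support.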

How the data were processed

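RNA from inflorescences was sequenced with paired ends on an Illumina NovaSeq, per the labels. The deposited values are RPKM per gene, made by the authors. The submitters' processing notes list HISAT2, HTSeq and cutadapt with no version, the labels describe the counting as unstranded, and no source used here states the genome build. Whole reads were recovered from the RPKM steps for 29911 of 29911 genes above 0, within 0.005 of a read. Names and coordinates came from TAIR10.1, which held 37051 of the 37336 identifiers.

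Limma 3.58.1 (R 4.3.3) with a mean-variance trend was fitted to log2(RPKM + 1) in all 15 libraries with a mean per group, after a filter of 1 RPKM in at least 3 of the 6 quintuple libraries. The test is two-sided, with a threshold of 0.05 after Benjamini-Hochberg adjustment over 19583 genes. The code was checked on simulated data, which gave every gene the same spread beyond counting error and had no library that stood apart. No replicates agreed within sampling noise (chi-square per gene 2.99 to 12.55 within the quintuples). Alternatives changed the pseudocount, filter, scaling, libraries and model.

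The compared groups, gene lists and tests were chosen with earlier results of these data known. Named genes were the mutated genes, the called genes, the 10 smallest p-values, and genes under 0.1 RPKM in one quintuple and at least 1 RPKM in the other. Of the listed names, 71 could not be matched to a single right gene. Outliers set aside by the authors can narrow the spread, and intervals of reads would cover counting error only.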

Additional observations from a re-analysis of the deposited data

How the results depend on the processing

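The count of 3 called genes changed to 4 with a pseudocount of 0.1, to 1 with a filter of 5 RPKM, to 5 after quantile normalization and to 5 with array weights, and stayed at 3 with a pseudocount of 0.5, without a filter, after median-of-ratios scaling and with limma's voom on recovered reads. Fitted to the 6 quintuple libraries alone it was 0 (831 genes at an unadjusted p under 0.05), and to the 9 libraries with wild type, an alternative added after seeing the data, 4. Without 1 of the 6 libraries it ran from 1, without replicate 3 of the dvl1 quintuple, to 6, without replicate 4 of the dvl1 quintuple; without replicate 4 of the rtfl9 quintuple it was 2. The quintuples share only replicate numbers 2 and 4, whose libraries' deviations correlated over genes at -0.06 and 0.40. The value for number 4 was the highest of all pairs across the mutants. Replicate 2 of the dvl1 quintuple instead matched replicate 1 of the rtfl9 quintuple best, at 0.28. The numbers were not taken to pair the libraries, although a match at number 4 remains possible. With the replicate block the count was 1 over 15 libraries and 0 over the 6 (1027 genes at an unadjusted p under 0.05). The cause of these changes was not tested, apart from the filter of 5 RPKM, which removed AT3G30122 and AT3G29633. Over the alternatives AT3G30122 ran from -2.27 to -1.52 (called in 15 of 17), AT3G29633 from -1.65 to -0.88 (12 of 17) and AT4G04223 from -1.19 to -0.95 (13 of 18). No direction reversed among the 10 genes of smallest p and DVL11. AT3G19030 was called under 3 alternatives and AT3G20340 under 2. Genes with few reads are limited by depth.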

Other observations

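The following genes, at ranks 11 to 20 by p, are outside the rule for named genes and were chosen after their values were seen. ETR2, an ethylene receptor gene, stood at 5.86, 6.65 and 6.59 RPKM in the dvl1 quintuple and at 4.78, 5.12 and 4.4 RPKM in the rtfl9 quintuple (0.35 ± 0.08, adjusted p = 0.921). EBF1, an F-box gene, stood at 47.7, 50.7 and 48 RPKM and at 44.6, 43.5 and 42.3 RPKM (0.16 ± 0.04, adjusted p = 0.972). Neither passed limma's test, and in both the libraries of the mutants did not overlap. UGT74B1, a glucosyltransferase of glucosinolate synthesis, had 27.7 ± 1.2 and 22.7 ± 0.842 RPKM (0.28 ± 0.07, adjusted p = 0.921).

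Transcripts that are not protein-coding were frequent at the top of the ranking. Of the 3 called genes 1 was protein-coding, as were 15 of the 20 genes with the smallest p, beside 96.6% of the genes tested. The others are not all separate cases, as AT4G04223 and AT5G38005 share sequence. The long non-coding RNA genes AT1G05143 and AT5G06015 rested on few reads, 12 and 9 in the dvl1 quintuple and 32 and 37 in the rtfl9 quintuple.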
